A study of Mus musculus with 30 samples.

Results

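The genes described here are 10 genes of the serum response factor (SRF) and actin programme, out of 57186 gene identifiers in the count matrix: Srf itself, the actins Actb, Actg1 and Acta2, and the actin-binding or contractile genes Tagln, Myl9, Cnn1, Cnn2, Vcl and Tpm1. They were chosen by symbol, and all 10 were found through their Ensembl identifier with its version suffix removed. RNA sequencing was used to ask how the transcriptome responds when protein synthesis is inhibited with cycloheximide (CHX), an inhibitor of translation elongation, at 0.1 µg/mL. NIH/3T3, labelled a fibroblast line and grown in DMEM with 10% fetal bovine serum, and CGR8, mouse embryonic stem cells (mESC) grown in N2B27 with 2i/LIF, were sampled at 0, 1, 2, 5 and 48 h. Each of the 10 groups of 1 line and 1 time had 3 replicates (A, B and C), and both lines carried the ROSA26 SLT knock-in at every time, so no group lacks it. The 0 h libraries are the reference of their line. Their treatment label names CHX at 0.1 µg/mL like that of every other library, so only the 0 h in their titles sets them apart. A group kept in culture for 48 h without CHX was not analysed here, so time and CHX cannot be told apart. Nothing in the labels says that the replicates were separate cultures, so p-values measure the spread between these libraries, which may be technical.

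SRF is a transcription factor that binds the CArG box, a short element of paired C and paired G bases around an A/T-rich core. The MRTF cofactors bring it to cytoskeletal and contractile genes. They bind unpolymerized actin, which keeps them out of the nucleus until actin assembles into filaments, and the ternary complex factors bring SRF to immediate-early genes instead. In fibroblasts the programme builds stress fibres and focal adhesions, while Tagln, Cnn1 and Acta2 are best known from smooth muscle and myofibroblasts.

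Promoter sequences are shown because the CArG box is the element that joins these genes. RefSeq promoter entries on GRCm38.p6 were matched by symbol for 8 of the 10 members, all but Actb and Tagln. In the 250 bases before the start site, an exact CArG box (CC, 6 bases that are each A or T, GG) on either strand (the motif is its own reverse complement) was found in 5 of the 8: Srf, Actg1, Myl9, Cnn2 and Vcl. By comparison, 1.47% of 32851 RefSeq promoter entries of this length hold one, and 1.62% of 27025 genes have such an entry. The members were named as genes of the SRF programme, so a higher share among them is not a test. Boxes with 1 deviation were those that keep CC and GG and have 1 C or G among the 6 bases between them. A change in CC or GG was not searched. Acta2 has only boxes with 1 deviation, and boxes exact or with 1 such deviation occur in 8.59% of entries (9.78% of genes). Neither of these was found for Cnn1 and Tpm1 in this window. The promoters of Srf (chr17:46556163-46556412, minus strand), Actg1 (chr11:120348496-120348745, minus strand), Vcl (chr14:20929148-20929397, plus strand) and Acta2 (chr19:34255374-34255623, minus strand) follow, 5′ to 3′ and ending 1 base before the start site. Srf, Actg1 and Vcl are the 3 members whose RNA rose in NIH/3T3 at 48 h, and Acta2 is the member that separates the lines most. Capitals mark the boxes.
Srf: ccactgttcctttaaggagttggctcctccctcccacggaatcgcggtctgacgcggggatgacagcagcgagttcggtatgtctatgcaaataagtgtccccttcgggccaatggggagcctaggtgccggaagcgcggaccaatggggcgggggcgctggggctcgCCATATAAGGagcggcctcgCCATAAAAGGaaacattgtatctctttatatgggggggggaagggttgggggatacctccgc
Actg1: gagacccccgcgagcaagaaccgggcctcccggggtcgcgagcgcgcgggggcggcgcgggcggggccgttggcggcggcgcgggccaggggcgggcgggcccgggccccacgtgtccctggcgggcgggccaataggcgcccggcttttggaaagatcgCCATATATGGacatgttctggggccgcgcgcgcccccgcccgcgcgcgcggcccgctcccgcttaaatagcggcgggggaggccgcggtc
Vcl: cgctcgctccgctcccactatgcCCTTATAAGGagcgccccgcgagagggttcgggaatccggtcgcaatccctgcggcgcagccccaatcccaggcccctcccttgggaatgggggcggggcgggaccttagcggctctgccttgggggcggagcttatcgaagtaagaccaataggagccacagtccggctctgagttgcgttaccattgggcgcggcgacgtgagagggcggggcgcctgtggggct
Acta2: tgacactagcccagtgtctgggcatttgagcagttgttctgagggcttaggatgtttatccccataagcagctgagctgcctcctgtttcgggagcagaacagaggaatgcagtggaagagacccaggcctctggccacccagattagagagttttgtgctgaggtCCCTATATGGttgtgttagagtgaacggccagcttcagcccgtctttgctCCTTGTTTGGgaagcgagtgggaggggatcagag
Srf carries a pair of boxes, beginning 82 and 62 bases before the start. The box of Actg1 begins 90 bases before the start and that of Vcl 227 bases before it. Vcl shares its box, CCTTATAAGG, with Cnn2, where it begins 56 bases before the start. The box of Myl9, CCTAATAAGG, begins 161 bases before the start, and a box with 1 deviation, CCTTGTAAGG, lies 99 bases before it. These are matches of letters in a window and not measured binding.

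**Figure D1:**
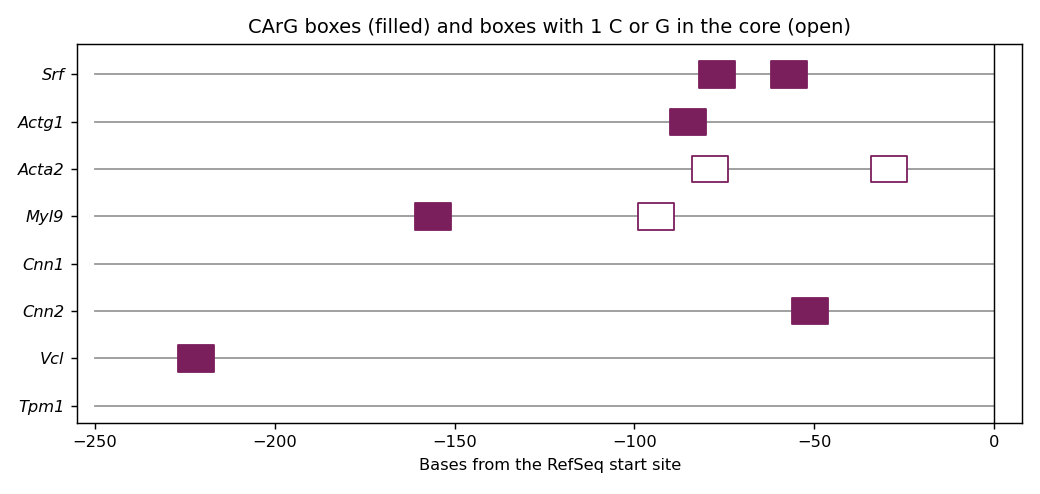
Position of each CArG box (filled) and each box with 1 C or G among the 6 bases between CC and GG (open), in bases from the RefSeq start site, for the 8 members with a promoter entry. Srf has 2 exact boxes, Actg1, Myl9, Cnn2 and Vcl have 1 each, Acta2 has only open boxes, and no box of either kind is drawn for Cnn1 and Tpm1.

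Library totals ranged from 18.2 to 30.5 M counts. Levels are given as CPM (counts scaled to a common library size), with each library's total multiplied by the TMM factor of its line's fit. A CPM is a share of the library, so in these bulk samples fewer cells of a type and less RNA per cell cannot be told apart. On library totals alone, the 6 stem cell markers fixed for this work summed to at most 0.553 CPM in any NIH/3T3 library and at least 4433 CPM in any CGR8 library. Fibroblast collagen genes and Lox summed to 4013 to 10536 CPM in NIH/3T3 and at most 1.04 CPM in CGR8, so both lines match their labels. In 3 groups 1 library lay far from both replicates by a chi-square test of gene counts per degree of freedom: NIH/3T3 1 h C (76.2 and 89.1, against 4.41 for A with B), NIH/3T3 2 h A (44.6 and 36.7 against 7.24) and CGR8 0 h B (36.2 and 36.3 against 3.55). All 3 pairs were far apart in CGR8 at 2 h (37.5 to 61.7) and 5 h (31.7 to 73.7). Part of this spread followed transcript length: in NIH/3T3 1 h C the median log2 deviation of genes of at least 5000 bases minus that of genes of at most 2000 bases was -0.74, and in CGR8 at 5 h it was -0.53 in A and 0.54 in C. In the other outlying libraries this difference was -0.36 (CGR8 0 h B) and -0.001 (NIH/3T3 2 h A), so the deviation of NIH/3T3 2 h A did not follow length. Results of members that rest on these libraries are given with and without them, an alternative chosen after seeing the data.

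In NIH/3T3 Srf, the 3 actins, Myl9 and Cnn2 fell by 5 h, and by 48 h Srf, Actg1 and Vcl stood above their starting level. In CGR8 Srf and Actb fell at 5 h, Tpm1 rose, and no member was called higher at 48 h. In NIH/3T3 8 of the 10 members passed the filter on low counts. By edgeR's quasi-likelihood test with Benjamini-Hochberg adjustment over all genes, at an adjusted p under 0.05, 0 of the 8 were called at 1 h, where 0.732% of all genes tested were (1575 genes had an unadjusted p under 0.05). At 2 h 0 of 8 were called, against 35% of all genes. Without 2 h A, Srf (-0.30, adjusted p = 0.0214 by edgeR), Actb (-0.37, adjusted p = 0.00431) and Vcl (-0.39, adjusted p = 0.0103) were called lower at 2 h, on the log2 scale, and without all 3 outlying libraries Actg1 and Cnn2 were too, which gives 5. Shares of all genes in the fits that leave libraries out are not given here. The printed shares belong to the fit of all libraries and do not apply to those counts. At 5 h 6 of 8 were called, all lower, against 51% of all genes called and 27.1% called lower. The median log2 change of the 8 was -0.57, against -0.01 over all genes. At 48 h 3 were higher and 1 was lower, against 52.3% of all genes (26.7% higher and 25.6% lower), and from 5 h to 48 h 7 of 8 rose, against 65.6% of all genes called and 34.1% called higher. Without the 3 outlying libraries Vcl was also called at 1 h (0.30, adjusted p = 0.0182 by edgeR) and 5 h (-0.21, adjusted p = 0.0175), which gives 7 at 5 h, and Cnn2 (0.26, adjusted p = 0.000387) and Tpm1 (0.13, adjusted p = 0.0135) at 48 h, which gives 6. Other genes of the line's character moved at the same times: the 4 fibroblast markers, all above 1 CPM in every NIH/3T3 library, summed to 6558 to 7109 CPM at 0 h, 4231 to 4953 at 5 h and 10173 to 10536 at 48 h. The 5 smooth muscle markers summed to 21.1 to 28.8, 16.7 to 20.9 and 28.6 to 29.6 CPM, with Myh11 and Myocd at 0 in some libraries and Lmod1 under 1 CPM in all. The 5 striated muscle markers summed to 13.9 to 17.9, 13.6 to 16.1 and 4.76 to 5.54 CPM. Their part in the members' changes was not tested.

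In CGR8 7 members passed the filter. Myl9 did so only through libraries of 1, 2 and 5 h, with at most 35 counts, while its 0 h and 48 h libraries held at most 5. A gene let in that way had to differ, so its CGR8 values are given further on as a description and the counts here are over the other 6. At 1 h 0 of 6 were called, against 0.27% of all genes (1289 genes at an unadjusted p under 0.05), and at 2 h 0 of 6, against 19.9% (8.97% higher, and 5624 genes at an unadjusted p under 0.05). At 5 h 1 was higher and 2 were lower, against 52.1% (24.9% higher and 27.2% lower). At 48 h 2 were lower, against 27.8% (15.6% lower). From 5 h to 48 h 3 rose and 1 fell, against 57.5% (28.9% higher and 28.6% lower). The comparisons with 0 h share their 0 h libraries within a line. With the 3 outlying libraries left out, of which CGR8 0 h B is the one in this line, Cnn2 was also called higher at 5 h, which gives 4, and Srf was not called at 48 h, which gives 1. The share of all genes called with these libraries left out is not given here. In the fits of all libraries, the members' shares at 5 h in CGR8 (3 of 6) and at 48 h in NIH/3T3 (4 of 8) lay near those of all genes. The stem cell markers summed to 4433 to 4563 CPM at 0 h, 5904 to 6477 at 5 h and 4772 to 5346 at 48 h in CGR8, with no overlap between 0 h and either later group. Their part in the members' changes was not tested.

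**Figure D2:**
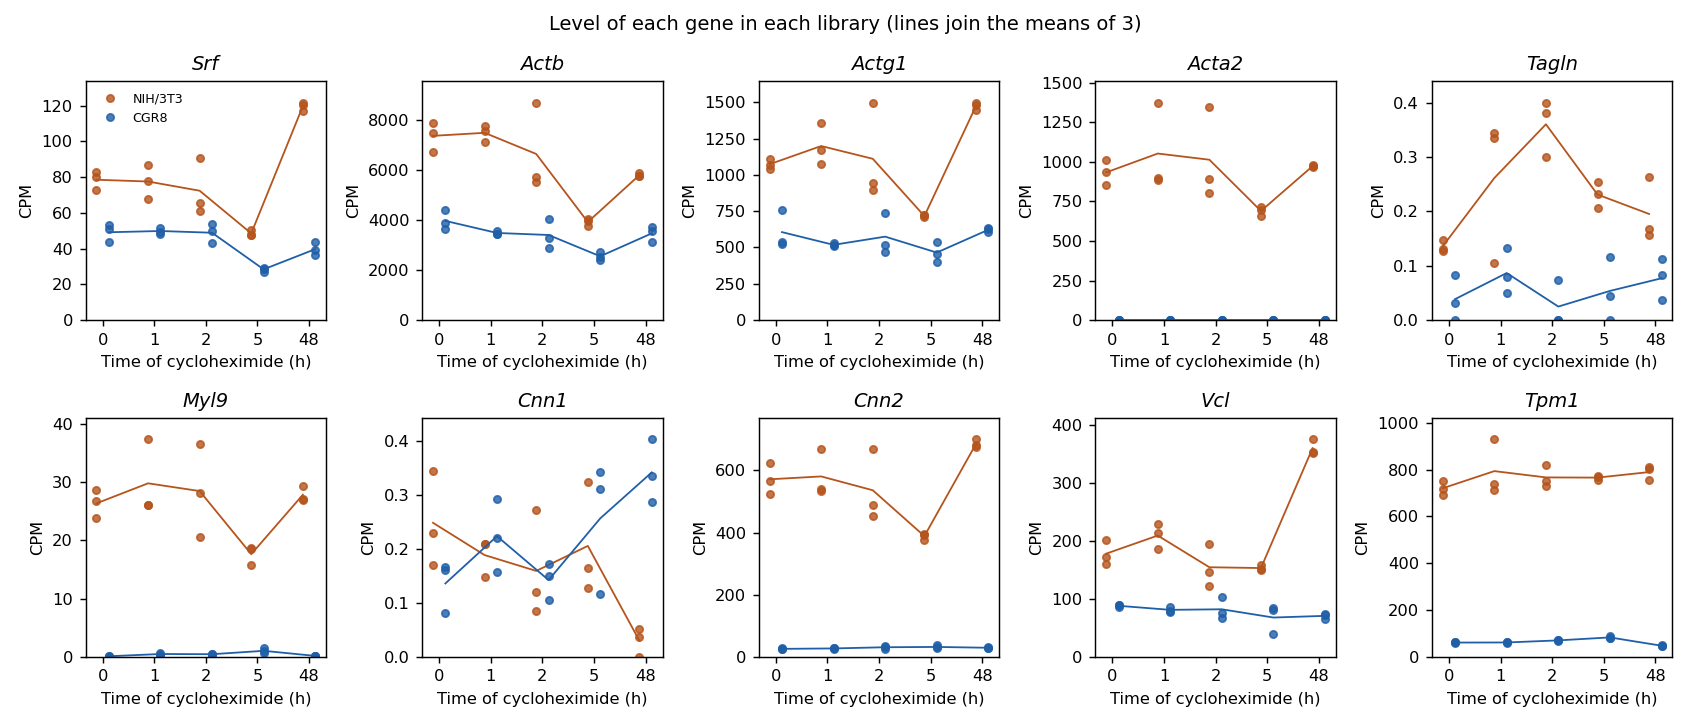
Level of each member in every library (points, CPM on axes that start at 0) against time of CHX, with lines through the means of 3 libraries. In NIH/3T3 the points of Srf, Actb, Actg1, Acta2, Myl9 and Cnn2 at 5 h lie below all those at 0 h, and Acta2 and Myl9 lie near 0 in CGR8 throughout. Tagln and Cnn1 stay under 0.5 CPM in both lines.

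Srf, the transcription factor of the programme, fell at 5 h in both lines, and by 48 h it stood above its starting level in NIH/3T3 but not in CGR8. In NIH/3T3 its level was 80.2, 72.6 and 82.9 CPM in the 0 h libraries A, B and C, 77.8, 86.9 and 67.9 at 1 h, and 90.8, 60.8 and 65.6 at 2 h. It was 47.7, 47.4 and 50.4 CPM at 5 h and 120.4, 121.6 and 117.1 CPM at 48 h. All 5 h libraries were below, and all 48 h libraries above, every 0 h library. By edgeR the log2 change was -0.70 ± 0.13 (SE; to 0.618 of the 0 h level, adjusted p = 0.000255) at 5 h and 0.61 ± 0.12 (1.52-fold, adjusted p = 0.000696) at 48 h, with n = 3 per group. From 5 h to 48 h Srf rose 2.47-fold. In CGR8 it was 50.8, 53.1 and 43.5 CPM at 0 h, 51.7, 49.5 and 48.4 at 1 h, and 53.7, 50.02 and 42.9 at 2 h. At 5 h the values were 28.6, 29.4 and 27.2 CPM and at 48 h 36.5, 43.6 and 39.0 CPM. The 5 h libraries were again below all 0 h libraries (log2 change -0.79 ± 0.11, adjusted p = 3.5e-05 by edgeR), while those of 48 h overlapped with 0 h.

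Srf at 48 h in CGR8 was called lower by edgeR (-0.31 ± 0.11, adjusted p = 0.0479). The call was lost without 0 h A, 0 h B, 48 h A or 48 h C, where the log2 change was -0.24 to -0.30 (adjusted p from 0.13 to 0.189). It was also lost by edgeR with RLE factors (adjusted p = 0.0694), no filter (0.207) or the compared groups alone (0.0554), and by DESeq2 (adjusted p = 0.0553). The difference between the lines was tested directly. At 5 h the change of Srf differed by -0.01 ± 0.17 on the log2 scale (CGR8 minus NIH/3T3, adjusted p = 1 by edgeR), an SE that leaves room for a moderate difference. At 48 h it differed by -0.93 ± 0.17 (adjusted p = 0.000159). In the M21 annotation Srf overlaps the lincRNA Gm26904 on the opposite strand, and whether the counting used strand is not given in the sources used here.

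Actb, cytoplasmic β-actin and the most abundant member, fell at 5 h in both lines. In NIH/3T3 it was at 7480, 6731 and 7861 CPM at 0 h, 7125, 7539 and 7769 at 1 h, and 8678, 5519 and 5704 at 2 h. The values at 5 h were 3749, 4031 and 3966 CPM and those at 48 h 5746, 5880 and 5743 CPM. Neither of the later groups overlapped with 0 h. The log2 change was -0.91 ± 0.14 at 5 h (to 0.532 of the 0 h level, adjusted p = 5.35e-05 by edgeR), the furthest fall among the members in this line. At 48 h it was -0.35 ± 0.14 (adjusted p = 0.0434 by edgeR), a call that was lost without 0 h A, 0 h C or any single 48 h library (-0.29 to -0.36, adjusted p from 0.0845 to 0.148). In CGR8 Actb was at 3881, 4384 and 3618 CPM at 0 h, 3574, 3436 and 3428 at 1 h, and 4042, 3278 and 2875 at 2 h. It was at 2738, 2513 and 2392 CPM at 5 h and 3134, 3699 and 3559 CPM at 48 h. Every 5 h library was below the 0 h libraries (-0.64 ± 0.13, adjusted p = 0.000622), and 48 h overlapped with 0 h (-0.19 ± 0.13, adjusted p = 0.275 by edgeR). Without 2 h A, Actb in CGR8 was called lower already at 2 h (-0.37, adjusted p = 0.0439 by edgeR).

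Actg1, cytoplasmic γ-actin, is a near-identical protein to β-actin, and in NIH/3T3 at 48 h its RNA had risen where that of Actb had fallen. Its NIH/3T3 levels were 1039, 1069 and 1113 CPM at 0 h, 1073, 1169 and 1355 at 1 h, and 1497, 895 and 941 at 2 h. They were 721, 707 and 721 CPM at 5 h and 1484, 1448 and 1493 CPM at 48 h. The 5 h libraries lay below and the 48 h libraries above all of 0 h: the log2 changes were -0.58 ± 0.15 (adjusted p = 0.00344) and 0.46 ± 0.15 (adjusted p = 0.0149 by edgeR). Without 0 h A the rise at 48 h missed the threshold (0.43, adjusted p = 0.0518). In CGR8 Actg1 was at 523, 759 and 535 CPM at 0 h, where B stood apart, 514, 530 and 511 at 1 h, and 738, 514 and 471 at 2 h. It was at 454, 538 and 403 CPM at 5 h and 626, 634 and 607 CPM at 48 h. The 5 h change was -0.38 ± 0.17 (adjusted p = 0.0643 by edgeR) with overlapping groups, and it passed without 0 h A (-0.48, adjusted p = 0.0427) or 5 h B (-0.50, adjusted p = 0.0384). Without the outlying 0 h B it was -0.17 (adjusted p = 0.391). The rise from 5 h to 48 h (0.42 ± 0.17, adjusted p = 0.0398 by edgeR) was lost without 5 h A, 5 h C or any single 48 h library (0.33 to 0.44, adjusted p from 0.0659 to 0.132). Of the 50-base stretches of the Actg1 transcripts, 45.6% also occur in other genes, mostly the pseudogene Gm12715, so counts near such stretches are uncertain. Gm12715 itself held 1.24 to 1.82% as many counts as Actg1 in NIH/3T3 and 1.18 to 1.94% in CGR8.

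Acta2, the smooth muscle α-actin that also marks myofibroblasts, was a major transcript in NIH/3T3 and near 0 in CGR8. In NIH/3T3 it was at 936, 852 and 1011 CPM at 0 h, 900, 884 and 1373 at 1 h, and 1345, 804 and 891 at 2 h. It was at 715, 658 and 695 CPM at 5 h and 965, 978 and 974 CPM at 48 h. The 1 high library at 1 h is C and that at 2 h is A, the libraries that stood apart from their replicates. At 5 h all libraries were below 0 h (-0.44 ± 0.17, adjusted p = 0.0448 by edgeR). This call was lost without 0 h A, 0 h C or any single 5 h library (-0.36 to -0.46, adjusted p from 0.0885 to 0.16). The rise from 5 h to 48 h (1.41-fold) was lost without 5 h B (log2 0.46, adjusted p = 0.0629 by edgeR). In CGR8 Acta2 held 0 to 3 counts in each of 15 libraries and 23 in all, so no fold is given. A count of 0 allows up to 0.147 CPM in the CGR8 library where this limit is highest, for counting error alone.

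The actins were also compared as shares. As a share of the library total, the 6 actin genes, Acta1, Acta2, Actb, Actc1, Actg1 and Actg2, took 0.941 ± 0.0661% of all counts in NIH/3T3 at 0 h (SD, n = 3), 0.535 ± 0.0129% at 5 h and 0.871 ± 0.00639% at 48 h. In CGR8 they took 0.462 ± 0.0364%, 0.283 ± 0.00967% and 0.407 ± 0.0219%. The share of Actg1 within Actb plus Actg1 does not depend on library scaling. Actg1 made up 12.2, 13.7 and 12.4% of Actb and Actg1 counts together in NIH/3T3 at 0 h and 20.5, 19.8 and 20.6% at 48 h. The groups did not overlap, and the exact two-sided permutation test gave p = 0.1, the smallest that 3 against 3 libraries allow (0.267 after adjustment over 24 such tests). In CGR8 the same share was 11.9, 14.8 and 12.9% at 0 h and 16.7, 14.6 and 14.6% at 48 h, and these groups overlapped (exact permutation p = 0.3). A share of this kind shows unequal change of the 2 genes, not which of them changed.

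**Figure D3:**
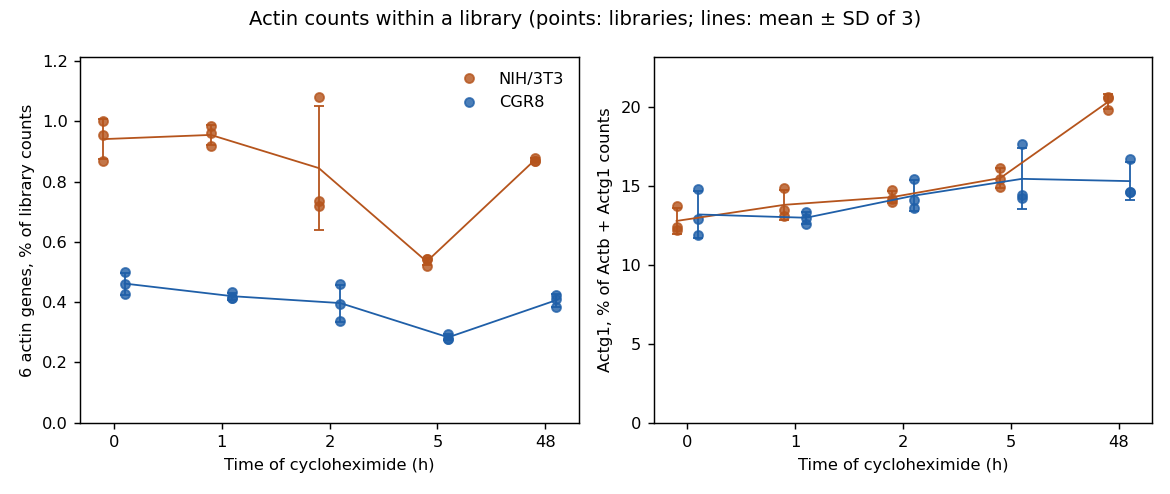
Left, the 6 actin genes as a percent of all counts of a library. Right, Actg1 as a percent of Actb plus Actg1 counts; points are libraries and lines join means ± SD of 3. The actin share is lowest at 5 h in both lines, at 0.535% in NIH/3T3 and 0.283% in CGR8, and the Actg1 share in NIH/3T3 at 48 h (20.3 ± 0.477%) lies above the other groups.

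Myl9, a regulatory light chain of myosin II that sets contractile force once phosphorylated, fell in NIH/3T3 at 5 h. Its levels there were 26.7, 23.8 and 28.6 CPM at 0 h, 26.0, 26.1 and 37.3 at 1 h, and 36.6, 20.6 and 28.2 at 2 h. At 5 h they were 18.6, 15.8 and 18.4 CPM, below every 0 h library, and at 48 h 27.0, 27.1 and 29.4 CPM, overlapping with 0 h. The 5 h change was -0.58 ± 0.17 (adjusted p = 0.0109 by edgeR) and missed the threshold without 0 h C or 5 h B (-0.51 each, adjusted p = 0.0542 and 0.0531). In CGR8 Myl9 was barely expressed: the raw counts were 2, 1 and 4 at 0 h, 14, 8 and 10 at 1 h, and 8, 13 and 14 at 2 h. They were 35, 12 and 24 at 5 h and 3, 4 and 5 at 48 h. All libraries of 1, 2 and 5 h were above those of 0 h. The fitted log2 change was 2.27 at 2 h and 3.48 at 5 h, from a starting level of 0.0906 ± 0.0675 CPM (SD, n = 3), and no test of it is given because the filter admitted Myl9 through the higher groups. At its highest, 1.02 ± 0.489 CPM at 5 h, Myl9 in CGR8 stayed far under its lowest level in NIH/3T3, 15.8 CPM.

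Cnn2, a calponin of non-muscle cells that binds actin filaments, changed differently in the lines at 5 h. In NIH/3T3 it was at 565, 525 and 625 CPM at 0 h, 533, 540 and 669 at 1 h, and 669, 452 and 488 at 2 h. It was at 396, 377 and 393 CPM at 5 h and 676, 680 and 700 CPM at 48 h. The 5 h libraries lay below 0 h (-0.56 ± 0.13, adjusted p = 0.00168 by edgeR). The 48 h libraries lay above it, but the change of 0.26 ± 0.13 had an adjusted p of 0.0924 by edgeR. In CGR8 the levels were 23.5, 29.3 and 23.8 CPM at 0 h, 25.7, 27.3 and 27.7 at 1 h, and 35.1, 30.4 and 26.7 at 2 h. They were 37.1, 30.6 and 27.4 CPM at 5 h and 28.5, 31.1 and 27.5 CPM at 48 h. The change of 0.31 ± 0.13 at 5 h was not called (adjusted p = 0.0603 by edgeR), and was called higher without 0 h B (0.44, adjusted p = 0.019) or 5 h C (0.41, adjusted p = 0.024). Without 5 h A it was 0.20 (adjusted p = 0.238). The difference between the lines in the 5 h change was 0.96 ± 0.19 on the log2 scale (adjusted p = 0.000721 by edgeR).

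Vcl, which encodes vinculin, the focal adhesion protein that couples integrin complexes to actin, had the largest rise of any member in NIH/3T3 at 48 h. Its levels were 171, 201 and 160 CPM at 0 h, 213, 228 and 185 at 1 h, and 194, 146 and 123 at 2 h. They were 150, 151 and 159 CPM at 5 h and 353, 374 and 351 CPM at 48 h. The 48 h level was 2.02-fold that of 0 h (log2 1.02 ± 0.13, adjusted p = 1.28e-05 by edgeR), and the 5 h change of -0.22 ± 0.13 was not called (adjusted p = 0.189 by edgeR) although the groups did not overlap. In CGR8 Vcl was at 88.4, 86.2 and 89.0 CPM at 0 h, 86.2, 76.9 and 79.5 at 1 h, and 67.3, 102.9 and 75.4 at 2 h. It was at 38.7, 83.8 and 80.4 CPM at 5 h and 72.0, 65.7 and 73.9 CPM at 48 h. The low library at 5 h is A, which was also low for long transcripts in general. No CGR8 change of Vcl was called, and at 48 h it was -0.32 ± 0.21 (adjusted p = 0.286 by edgeR) with all 3 libraries below 0 h. The lines differed at 48 h by -1.35 ± 0.26 on the log2 scale (adjusted p = 0.000307 by edgeR). In M21 Vcl overlaps Ap3m1 on the opposite strand.

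Tpm1, a tropomyosin that lies along actin filaments, was not called at any time in NIH/3T3 and moved in both directions in CGR8. Its NIH/3T3 levels were 692, 719 and 750 CPM at 0 h, 713, 739 and 929 at 1 h, and 820, 728 and 752 at 2 h. They were 774, 755 and 768 CPM at 5 h and 754, 813 and 802 CPM at 48 h, with log2 changes of 0.09 ± 0.10 and 0.13 ± 0.10 (adjusted p = 0.462 and 0.261 by edgeR). In CGR8 the levels were 57.5, 61.8 and 63.1 CPM at 0 h, 57.5, 63.9 and 62.3 at 1 h, and 68.5, 70.8 and 71.1 at 2 h. The values at 5 h were 90.8, 78.8 and 78.9 CPM and those at 48 h 46.8, 49.3 and 45.8 CPM. Every 5 h library was above and every 48 h library below 0 h. The changes were 0.45 ± 0.09 (adjusted p = 0.00074) and -0.36 ± 0.09 (adjusted p = 0.00737 by edgeR), and from 5 h to 48 h Tpm1 fell to 0.571 of its 5 h level. The lines differed at 48 h by -0.51 ± 0.12 (adjusted p = 0.00323 by edgeR). At 5 h they differed by 0.45 ± 0.12 (adjusted p = 0.0161), a call lost without CGR8 0 h A (0.40, adjusted p = 0.0565), 5 h A (0.19, adjusted p = 0.465) or 5 h B (0.31, adjusted p = 0.167), and with RLE factors (0.36), library size alone (0.25) or no filter (0.40, adjusted p = 0.169).

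Tagln, the smooth muscle protein SM22α, and Cnn1, the smooth muscle calponin, are textbook SRF targets that were close to undetected here. Tagln had 3 to 10 counts per library in NIH/3T3 and 0 to 3 in CGR8. Cnn1 had 0 to 7 counts in NIH/3T3 and 2 to 11 in CGR8. Neither passed the filter in either line, and no change is given for them. In M21 Tagln overlaps the protein-coding gene Pcsk7 and the antisense gene Gm48529 on the opposite strand. Whether the counting used strand is not given in the sources used here, so the low counts of Tagln are uncertain to that extent. The smooth muscle marker list (Myh11, Des, Lmod1, Actg2 and Myocd) summed to 16.7 to 30.3 CPM in NIH/3T3, so the high Acta2 there stood beside low levels of other smooth muscle genes.

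**Figure D4:**
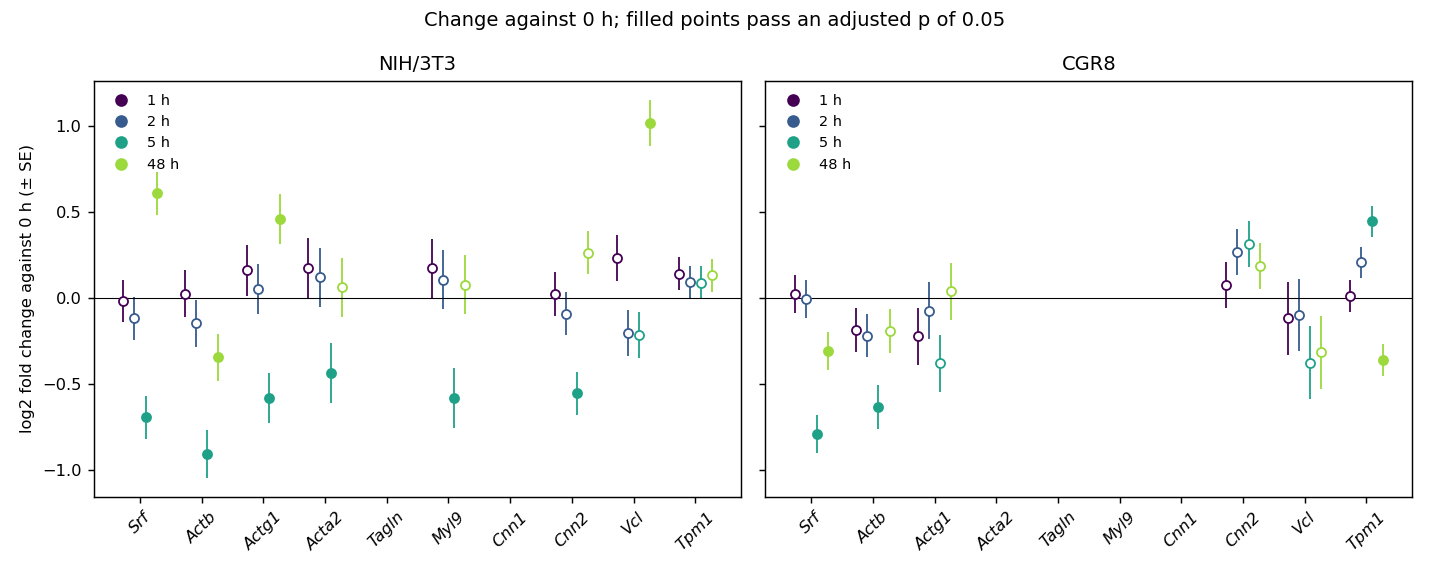
Fitted log2 fold change against 0 h (± SE) of each member tested, at 1, 2, 5 and 48 h, with filled points for an adjusted p under 0.05; Myl9 in CGR8 is left out because it rests on few counts. In NIH/3T3 the 5 h points of Srf, Actb, Actg1, Acta2, Myl9 and Cnn2 are filled and below 0 and the 48 h points of Srf, Actg1 and Vcl are filled and above 0. In CGR8 no 48 h point is filled above 0.

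Across the members, the difference between the lines in the change from 0 h was called for 0 of 8 at 1 h (0.16% of 17549 genes tested, 710 at an unadjusted p under 0.05) and 0 of 8 at 2 h (2.02%, 1766 at an unadjusted p under 0.05). At 5 h it was called for 3 of 8, Myl9, Cnn2 and Tpm1, all with the higher change in CGR8, against 13.3% of all genes (8.18% in that direction). Among all genes called there, 61.6% had the higher change in CGR8 with TMM factors, but 45.9% with RLE factors and 31.5% with library size alone. The median difference over all genes was 0.13 with TMM factors. At 48 h it was called for 3 of 8, Srf, Vcl and Tpm1, all with the lower change in CGR8, against 21.9% (12.1% in that direction). Without the 3 outlying libraries 2 members were called at 2 h (Myl9 and Cnn2) and 5 at 5 h, where Actb and Actg1 joined with differences of 0.44 and 0.48. The share of all genes called without these libraries is not given here, so those counts have none beside them. The difference for Acta2 is not read, since its CGR8 counts never exceeded 3. Myl9 is counted above, but its differences are a description, since they rest on 1 to 35 counts per CGR8 library.

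At 0 h the members tested were lower in the stem cells. All 8 members tested in the joint fit were called lower in CGR8 than in NIH/3T3. Of all genes, 79.1% were called, 36.3% lower and 42.8% higher. Acta2 and Myl9 held 0 to 3 and 1 to 4 counts in the CGR8 0 h libraries. They passed the filter only through other groups, where they were higher, so their calls were fixed in advance and are a description. The log2 differences were modest for Srf (-0.72 ± 0.12), Actg1 (-0.87 ± 0.16), Actb (-0.94 ± 0.13) and Vcl (-1.06 ± 0.18). They were larger for Tpm1 (-3.61 ± 0.10), Cnn2 (-4.53 ± 0.15) and Myl9 (-8.19 ± 0.34, from 1 to 4 counts per CGR8 library). To compare genes, levels were divided by the length of all annotated exons of a gene together, 6485 bases for Tpm1 and 8191 for Vcl. The transcripts expressed can be shorter, which would place a gene too low, so the order is approximate. Per kilobase of exon, the order in NIH/3T3 at 0 h began with Actb (2746 ± 214 CPM per kb, SD, n = 3). Acta2 (425 ± 36.3), Actg1 (404 ± 13.9), Cnn2 (232 ± 20.4) and Tpm1 (111 ± 4.51) came next. Srf (27.2 ± 1.84), Myl9 (22.7 ± 2.07), Vcl (21.7 ± 2.60), Cnn1 (0.0909 ± 0.0325) and Tagln (0.0683 ± 0.0054) followed. Acta2 with Actg1, Myl9 with Vcl and Cnn1 with Tagln differed by less than an SD. In CGR8 the order was Actb (1479 ± 145 CPM per kb), Actg1 (228 ± 49.9), Srf (17.0 ± 1.74), Vcl (10.7 ± 0.177), Cnn2 (10.4 ± 1.33) and Tpm1 (9.38 ± 0.454), with Myl9, Cnn1, Acta2 and Tagln at or under 0.078. Vcl with Cnn2 and Cnn2 with Tpm1 differed by less than an SD. With these exon lengths Srf ranked above Vcl, Cnn2 and Tpm1 in CGR8 and below Cnn2 and Tpm1 in NIH/3T3.

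Genes that act on the MRTF cofactors or on actin filaments upstream were described singly. Mrtfa, which encodes an actin-binding cofactor of SRF, fell at 5 h in both lines, with log2 changes of -0.66 (NIH/3T3) and -0.82 (CGR8). Mrtfb, its paralog, fell in CGR8 at 5 h (-1.64 ± 0.18). In NIH/3T3 at 5 h Scai, a repressor of MRTF activity, rose (0.84 ± 0.26), and Limk1, a kinase that inactivates cofilin, fell (-1.34 ± 0.14). Other genes of the pathway were counted in 3 lists.

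Of 34 contractile and adhesion genes beside the members, 31 were tested in NIH/3T3 and 28 in CGR8. At 5 h 5 rose and 14 fell in NIH/3T3 (median -0.19) and 5 rose and 13 fell in CGR8 (median -0.32), against a median of -0.01 over all genes in each line. These 19 of 31 and 18 of 28 stand beside 51% and 52.1% of all genes called. The 14 and 13 that fell stand beside 27.1% and 27.2% of all genes called lower. The 5 that rose in CGR8 stand beside 24.9% called higher. Smtn, which encodes the contractile protein smoothelin, was the furthest fall among genes of at least 10 CPM in both lines (-1.02 ± 0.13 and -0.83 ± 0.15), whereas the LIM protein gene Fhl2 rose in NIH/3T3 (1.00 ± 0.10) and the myosin light chain gene Myl6 in CGR8 (1.03 ± 0.17). At 48 h 11 rose and 8 fell in NIH/3T3 (52.3% of all genes called), where the actin-bundling gene Lima1 rose 3.09-fold and the focal adhesion gene Tes fell to 0.293 of its 0 h level. In CGR8 5 rose and 8 fell (27.8% of all genes called), with Lima1 up 1.58-fold and Pdlim7 down to 0.375.

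All 22 genes of actin monomer binding, turnover and the Arp2/3 complex were tested in both lines. At 5 h 7 rose and 6 fell in NIH/3T3, and 10 rose and 1 fell in CGR8. These 13 of 22 and 11 of 22 lay near the 51% and 52.1% of all genes called in either direction. By direction they did not in CGR8, where 24.9% of all genes were called higher and 27.2% lower. In NIH/3T3 27.1% of all genes were called lower. Without the 3 outlying libraries 18 of 22 were called in NIH/3T3 and 11 of 22 in CGR8, in a fit whose share of all genes is not given here. The capping protein gene Capza2 rose in NIH/3T3 (0.67 ± 0.10) and Gsn, the filament-severing gelsolin, fell (-0.48 ± 0.11). In CGR8 the profilin gene Pfn2 rose 2.82-fold and the filament disassembly gene Wdr1 fell (-0.53 ± 0.09). At 48 h 1 rose and 7 fell in NIH/3T3 (Gsn 0.44 ± 0.11; the thymosin gene Tmsb10 -0.94 ± 0.15), and 0 rose and 6 fell in CGR8, with the Arp2/3 subunit gene Arpc5 at -0.67 ± 0.10. Of all genes, 52.3% and 27.8% were called at that time. In NIH/3T3 26.7% were higher and 25.6% lower, and in CGR8 15.6% were lower.

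The 9 immediate-early targets are genes that SRF serves with ternary complex factors. In NIH/3T3 6 of 9 had risen at 1 h and 9 of 9 at 2 h (median log2 change 2.50), against 0.732% and 35% of all genes called, with Fosb at 11.6-fold at 2 h. At 5 h 0 were higher and 6 were lower, with Egr1 at -4.31 ± 0.20, and at 48 h 1 was higher and 5 were lower, Nr4a1 among them (-1.24 ± 0.20), against 51% and 52.3% of all genes called. In CGR8 7 of the 9 were tested. At 1 h 3 had risen, at 2 h 3 had risen (Egr1 20.6-fold) and 1 had fallen (Nr4a1, to 0.505), at 5 h 2 were higher (Junb 1.74-fold) and 1 was lower, and at 48 h 0 were called (6257 of all genes had an unadjusted p under 0.05). Of all genes, 0.27%, 19.9%, 52.1% and 27.8% were called at these times.

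**Figure D5:**
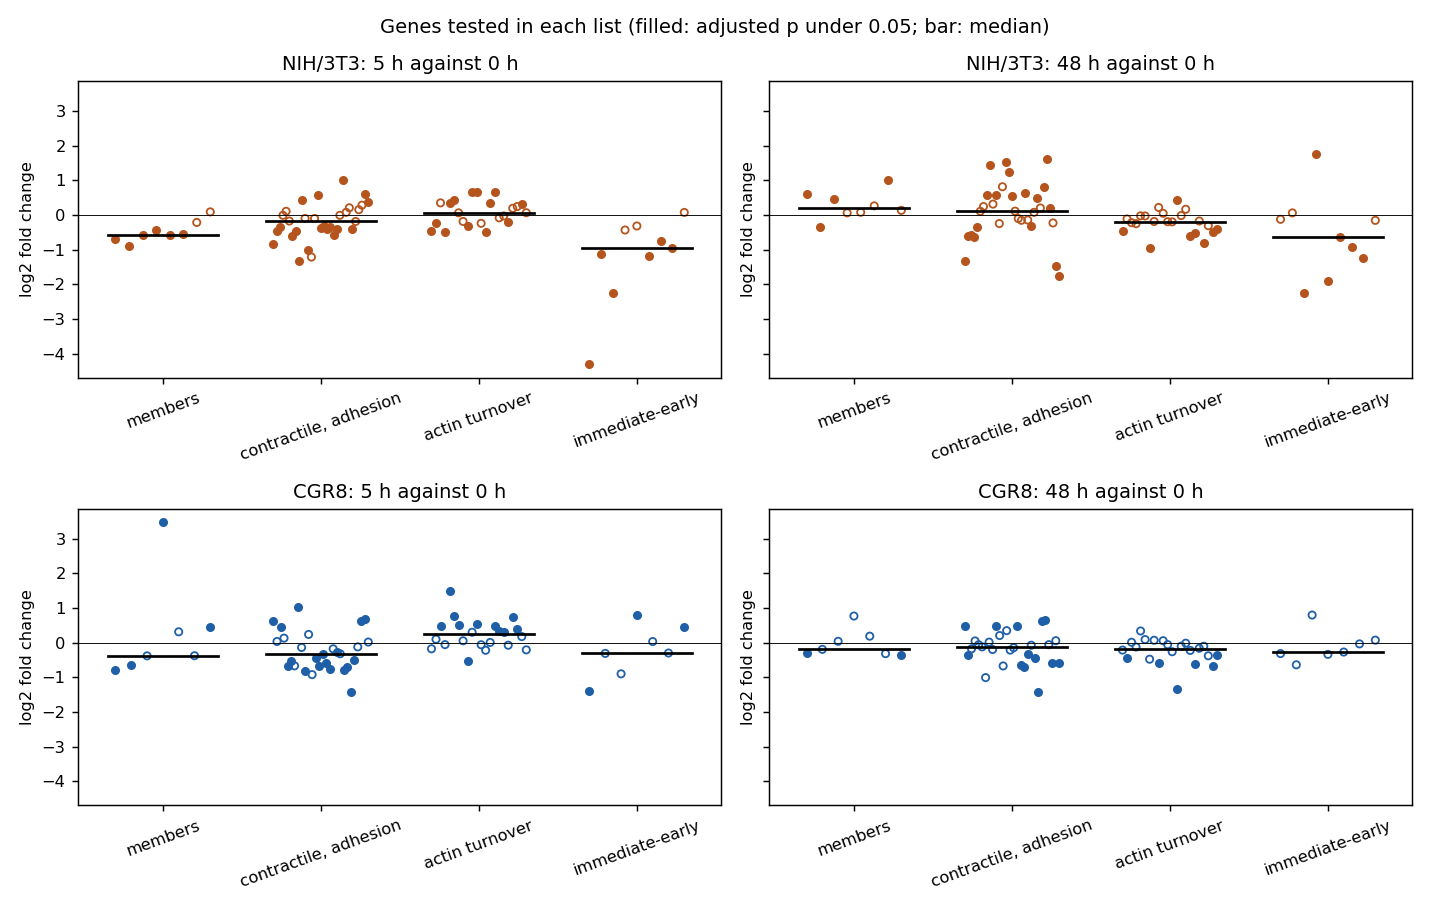
Fitted log2 fold change at 5 h and 48 h against 0 h of each tested gene in the members and the 3 pathway lists, in each line; filled points have an adjusted p under 0.05 and bars are medians. The members' bar lies at -0.57 and the bar of contractile and adhesion genes at -0.19 in NIH/3T3 at 5 h, and the separate member point at 3.48 in CGR8 is Myl9, shown as a description.

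Genes whose pattern was most like that of Srf and Actb were taken by the Pearson correlation of log2 CPM over the 15 libraries of a line, among genes of at least 10 CPM. The libraries share their depth and their deviations, so these values are descriptions. For Srf they were Pcx (0.98), Tbc1d17 (0.98) and Bcas3 (0.98) in NIH/3T3, and Smad7 (0.96), Ubald1 (0.95) and Txnrd3 (0.95) in CGR8. For Actb they were Slc48a1 (0.99), Aars (0.98) and Slc35e1 (0.97) in NIH/3T3, and Tomm34 (0.98), Adrm1 (0.97) and Aurkb (0.97) in CGR8. Srf and Actb correlated with each other at 0.56 in NIH/3T3 and at 0.87 in CGR8. Within NIH/3T3 Srf was closer to Actg1 (0.92), Cnn2 (0.90) and Vcl (0.85) than to Actb.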

How the data were processed

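The deposited values are raw counts of reads for each gene, in 30 columns of 1 library each. The submitters' processing notes name STAR, DESeq2 and the build GRCm39; the counting tool and its use of strand are not given in the sources used here. Per the labels' protocols, libraries came from a stranded mRNA ligation kit. Totals were 18.2 to 30.5 M counts, and reads are not molecules, so limits from a count of 0 (taken as 3 counts) cover counting error only. Identifiers were matched to symbols without their version suffix; exon lengths, overlaps and shared 50-base stretches come from GENCODE M21 (GRCm38), and promoters from RefSeq (GRCm38.p6).

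Counts were fitted in R 4.3.3 with edgeR 4.0.16: filterByExpr (minimum count 10, minimum total 15), TMM factors, the quasi-likelihood F test and Benjamini-Hochberg adjustment over all genes tested, with calls at 0.05. Each line was fitted on its 15 libraries, and differences between lines as interactions over 30 libraries. Levels in CPM use the line's TMM factors, marker levels library totals alone, and log2 CPM a prior count of 2. The test was checked on simulated counts. Alternatives were RLE factors, library size alone, DESeq2 1.42.0, voom with sample quality weights in limma 3.58.1, no filter, a mean of at least 5 CPM, fits of only the groups compared, a block for the replicate letter, and omission of each library in turn. Genes named beside the members were the largest called rise and fall per list, line and time (2, 5 and 48 h) that reached 10 CPM on average in the higher group, and the 3 most correlated with Srf and Actb; Mrtfa at 5 h was named after its values were seen. The members and lists were chosen with earlier results of these data known. Counts for 1 further list are not reported here.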

Additional observations from a re-analysis of the deposited data

Results flagged for a closer look

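In 6 cases the change from 0 h differed between the lines by a direct test, the interaction in edgeR's quasi-likelihood fit of all 30 libraries, given as CGR8 minus NIH/3T3 on the log2 scale. At 5 h the change of Myl9 differed by 4.15 ± 0.53 (SE), that of Cnn2 by 0.96 ± 0.19 (adjusted p = 0.000721) and that of Tpm1 by 0.45 ± 0.12 (adjusted p = 0.0161). The Myl9 value rests on 1 to 35 counts per CGR8 library, so it is a description and its test is not read. The Tpm1 call at 5 h was lost without CGR8 0 h A, 5 h A or 5 h B. It was also lost with RLE factors, library size alone or no filter. At 48 h the change of Srf differed by -0.93 ± 0.17 (adjusted p = 0.000159), that of Vcl by -1.35 ± 0.26 (adjusted p = 0.000307) and that of Tpm1 by -0.51 ± 0.12 (adjusted p = 0.00323). Each group has 3 libraries. The lines also differ in medium and in cell type, which cannot be told apart here.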

How the results depend on the processing

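Of 1876 values of single members under the alternatives, 1773 kept their direction and side of the threshold or were uncalled in both (97 of these with the other sign), 41 lost a call, 60 gained one and 2 reversed: Actg1 at 2 h in NIH/3T3 was -0.16 (adjusted p = 0.0488) with voom and -0.21 (adjusted p = 0.00141) without the 3 outlying libraries, against 0.05. Counts of members called, here with Myl9 in CGR8, moved as follows; the cause was not tested. With voom they were 1 at 1 h and 5 at 2 h in NIH/3T3, 1 at 1 h and 4 at 48 h in CGR8, and 1, 2 and 5 for the line differences at 1, 2 and 5 h. Voom also called more of all genes: 2881 and 7827 of 13941 in these NIH/3T3 comparisons, against 102 and 4878 with edgeR. In CGR8 it called 1044 and 7063 of 15933, against 43 and 4429. For the line differences it called 259, 709 and 6373 of 17549, against 28, 355 and 2329. With no filter the counts of members were 1 at 1 h and 0 at 48 h in CGR8 and 1 for the line differences at 1 h and 2 h. Of all genes, 202 and 4537 were then called in CGR8, and 44 and 323 for these differences. CGR8 at 48 h gave 1 with RLE factors, DESeq2 and the 3 libraries left out, and CGR8 at 2 h gave 0 with a mean of at least 5 CPM and with the compared groups alone. The line difference at 2 h gave 1 with library size alone and DESeq2, and 2 with the 3 libraries left out, when NIH/3T3 gave 1 at 1 h and 5 at 2 h and the line difference at 5 h gave 5. Leaving out each library gave 0 to 3 in NIH/3T3 at 2 h (3 without 2 h A), 2 to 4 at 48 h, 0 to 2 in CGR8 at 2 h, 1 to 2 at 48 h and 0 to 1 for the line difference at 2 h. Whether the replicate letters pair the libraries was not settled. Same-letter correlations were -0.58 to 0.42 (7 of 24 over 0.1), and different letters were not compared. With the replicate block the line difference at 2 h gave 1, and no other count of members moved past 1.5 times. Actb at 48 h in NIH/3T3 then had an adjusted p of 0.0501 by edgeR. With library size alone the median of all genes was -0.12 in CGR8 at 5 h and -0.11 for the line difference at 48 h, and it moved from 0.13 to -0.06 for that at 5 h.

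Of the list counts given in the report, these moved by over 1.5 times; list counts at other times and for the line differences also moved and are not given. In NIH/3T3 the turnover list at 48 h gave 18 with voom and without the 3 libraries and 17 with the compared groups alone. At 5 h in NIH/3T3 the contractile list gave 12 without 5 h B, and the turnover list 8 without 0 h A or 5 h C. In CGR8 the turnover list at 5 h gave 7 with the compared groups alone and without 0 h A or 0 h C. In CGR8 the immediate-early list gave 6 at 1 h and 5 at 5 h with voom. At 48 h in CGR8 the contractile list gave 6 without 0 h C or 48 h B, and the immediate-early list 1 with library size alone and 2 with voom and the compared groups alone. Without the 3 outlying libraries some list counts moved less. In NIH/3T3 the immediate-early list gave 9 at 1 h, the turnover list 18 at 5 h, and the contractile list 25 at 5 h and 27 at 48 h. The contractile list in CGR8 at 48 h gave 9. Shares of all genes in that fit are not given here.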
